A study of Homo sapiens with 6 samples.

Results

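The nuclear-encoded respiratory chain genes were taken from the count table by symbol, as protein-coding genes of the NDUFA, NDUFB, NDUFC, NDUFS and NDUFV series, SDHA to SDHD, the UQCR genes, CYC1, CYCS, the COX4 to COX8 subunit genes and the ATP5 genes. The rule found 89 of the 34036 genes in the table, and 81 of these had enough counts to be tested. A subunit of the chain or of ATP synthase is encoded by 81 of the 89, of which 77 were tested. RNA was sequenced from HepG2, a human line derived from a hepatocellular carcinoma. Cells received either a DGUOK siGENOME siRNA pool or a non-targeting siRNA, both with Lipofectamine RNAiMAX, and were harvested after 48 h, with 3 libraries in each group (siDGUOK and siControl). The sample titles separate the groups, whereas the treatment entry of the labels reads siControl for all 6 samples. Totals were 19065684, 18915508 and 10527216 counts in siControl replicates 1 to 3 and 18613138, 15978314 and 21334876 in siDGUOK replicates 1 to 3.

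The respiratory chain sits in the inner mitochondrial membrane, where complexes I and II pass electrons to ubiquinone, complex III passes them to cytochrome c, and complex IV passes them to oxygen. Complex V, the ATP synthase, uses the resulting proton gradient to make ATP. Complexes I, III, IV and V combine subunits encoded in the nucleus with subunits encoded in mitochondrial DNA, whereas complex II and cytochrome c are encoded in the nucleus alone. DGUOK is the mitochondrial deoxyguanosine kinase, which salvages purine deoxynucleosides for the synthesis of mitochondrial DNA.

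DGUOK, on chromosome 2 of GRCh38 from 73926826 to 73958961, was used to check the titles. It stood at 54.7, 53.5 and 48.5 CPM (counts relative to the scaled size of each library) in siControl replicates 1 to 3 and at 9.12, 10.5 and 6.69 CPM in siDGUOK replicates 1 to 3. Every library matched its title. The log2 fold change was −2.58 (standard error 0.19, edgeR adjusted p = 1.40e-08).

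Promoters show what members share beyond their symbols. Windows of 300 bases around the gene start, from RefSeq on GRCh38.p14, matched 66 of the 89 members with 79 windows, and SDHC and ATP5D were not among them. The windows were searched on both strands for 3 words known as binding words of regulators of respiratory genes, GCGCANGCG for NRF1, CCGGAAG for ETS factors such as GABPA, and AAGATGGCG for YY1. The NRF1 word was present in 29.1% of the member windows and in 7.52% of all 35116 windows. For the ETS word the shares were 26.6% and 10.3%, and for the YY1 word 12.7% and 1.75%. At least 1 of the 3 words was found in 54.4% of the member windows and in 17.5% of all windows. Counted by gene, 42 of the 66 members held a word in at least 1 window. Of the members that fell in the test described next, 7 had a window and 5 of these held a word. Of those that rose, 4 had a window and 1 held a word, and of those that did not pass, 34 of 52 did. A match describes the letters of a window and was not tested as a binding site.

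The windows of 3 complex II genes, which fell or had a negative fold change, and of NDUFB3 and ATP5E, which rose, are shown because most complex II genes were called lower and the other genes had the largest positive fold changes past the test. Capitals mark matches to the 3 words. Coordinates are chr5:218070-218369 (plus strand) for SDHA, chr1:17053983-17054282 (minus strand) for SDHB, chr11:112086623-112086922 (plus strand) for SDHD, chr2:201071751-201072050 (plus strand) for NDUFB3 and chr20:59032286-59032585 (minus strand) for ATP5E, which RefSeq names ATP5F1E.
SDHA: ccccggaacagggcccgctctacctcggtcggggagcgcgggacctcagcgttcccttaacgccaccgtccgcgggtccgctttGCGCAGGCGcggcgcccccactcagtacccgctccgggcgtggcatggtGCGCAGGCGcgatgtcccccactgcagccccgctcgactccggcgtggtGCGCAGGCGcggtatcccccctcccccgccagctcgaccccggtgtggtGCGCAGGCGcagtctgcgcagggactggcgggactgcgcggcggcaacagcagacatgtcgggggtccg
SDHB: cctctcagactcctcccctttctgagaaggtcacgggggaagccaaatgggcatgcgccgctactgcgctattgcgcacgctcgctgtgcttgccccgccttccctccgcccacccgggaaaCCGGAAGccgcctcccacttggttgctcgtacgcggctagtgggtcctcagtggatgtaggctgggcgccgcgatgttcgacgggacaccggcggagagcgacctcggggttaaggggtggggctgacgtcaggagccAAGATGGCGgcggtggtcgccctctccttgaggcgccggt
SDHD: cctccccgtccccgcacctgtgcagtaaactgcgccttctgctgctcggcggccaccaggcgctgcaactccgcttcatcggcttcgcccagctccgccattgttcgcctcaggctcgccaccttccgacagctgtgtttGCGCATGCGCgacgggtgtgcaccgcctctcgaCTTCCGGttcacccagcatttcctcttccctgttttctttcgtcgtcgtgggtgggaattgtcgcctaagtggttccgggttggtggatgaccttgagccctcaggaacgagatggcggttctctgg
NDUFB3: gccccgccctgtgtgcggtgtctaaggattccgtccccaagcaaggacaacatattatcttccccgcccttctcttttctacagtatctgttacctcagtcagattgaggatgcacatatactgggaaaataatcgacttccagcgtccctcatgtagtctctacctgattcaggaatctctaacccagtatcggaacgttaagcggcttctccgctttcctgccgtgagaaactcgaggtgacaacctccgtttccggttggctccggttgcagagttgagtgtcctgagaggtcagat
ATP5E: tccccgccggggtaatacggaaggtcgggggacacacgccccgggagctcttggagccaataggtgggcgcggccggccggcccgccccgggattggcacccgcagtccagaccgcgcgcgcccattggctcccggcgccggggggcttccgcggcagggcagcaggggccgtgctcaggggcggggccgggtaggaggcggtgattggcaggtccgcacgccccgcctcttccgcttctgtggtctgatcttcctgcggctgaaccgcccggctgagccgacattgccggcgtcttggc
The SDHA window holds 4 copies of the NRF1 word, each starting 49 bases after the one before. Of the 35116 windows, 56 (0.159%) held 4 or more. The window of NDUFB4 (named after its matches were seen) also held 4, and this gene did not pass (log2 fold change 0.06, edgeR adjusted p = 0.82). The SDHB window holds the ETS word and, further downstream, the YY1 word. In SDHD the NRF1 word reads on both strands at overlapping positions, and the ETS word follows, read on the strand opposite to the gene. The windows of NDUFB3 and ATP5E hold none of the 3 words, and in the 5 windows shown no match to 1 word overlaps a match to another. Among members past the test but not shown, ATP5G1 and UQCRC2 fell with no word, and NDUFAB1 rose with the NRF1 word. ATP5A1, ATP5G2 and ATP5H fell with a word in at least 1 window, and COX7A2L rose with none. A link of words to direction was not tested.

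Calls needed an absolute log2 fold change above 0.5 and, in edgeR's quasi-likelihood test, an adjusted p under 0.05. Of the 81 tested members, 8 were called (9.88%), against 14% of the 14476 genes tested. Of these, 2 were higher (2.47% of the members tested) and 6 lower (7.41%) in siDGUOK, where 7.14% and 6.90% of all genes were called. At the adjusted p alone 15 members passed (18.5%, against 19.6% of all genes), 6 higher and 9 lower, where all genes gave 9.93% and 9.66%. The split by direction moved with single libraries, to 4 called higher and 3 lower without siControl replicate 2 and to 2 higher and 3 lower without siControl replicate 3. Over all genes these fits called 1038 higher and 897 lower, and 913 higher and 791 lower. Without siControl replicate 3, 6 members passed the adjusted p higher and 5 lower. The groups did not overlap for 29 members (35.8%), and the share over all genes was also 35.8%. The median log2 fold change was −0.01 for the members and 0.01 for all genes. For 50 members the 95% interval of the fold change lay within 0.5 on the log2 scale on either side of 0. In these bulk samples, fewer cells of a type and less RNA per cell cannot be told apart. The p-values measure the spread between these 6 samples, since nothing in the labels says that replicates came from separate cultures.

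**Figure D1:**
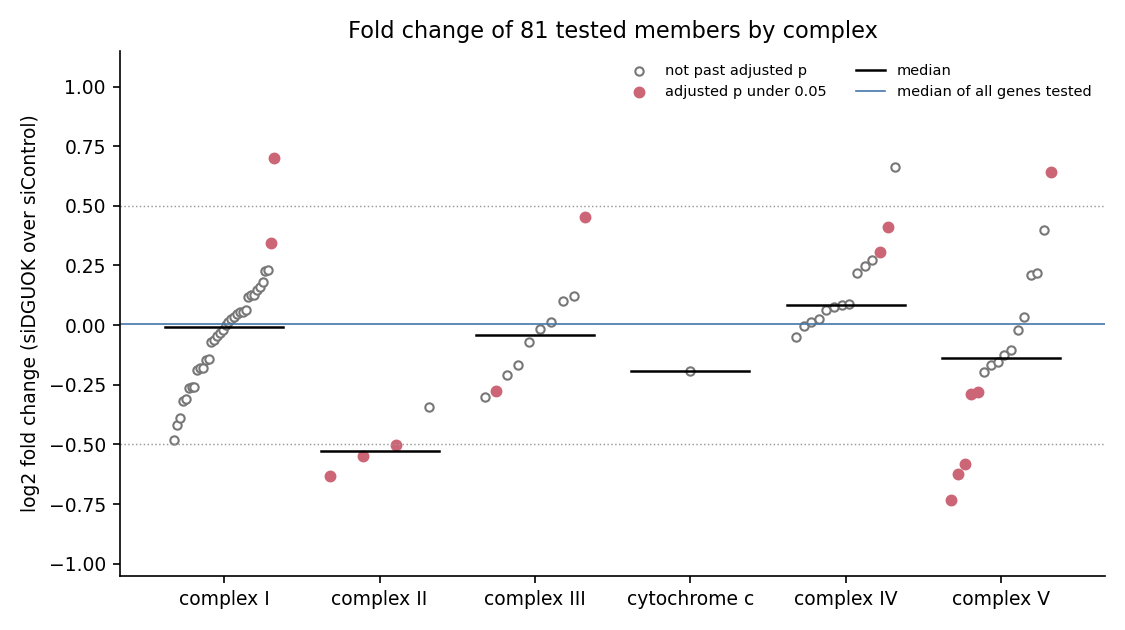
Log2 fold change (siDGUOK over siControl) of the 81 tested members, 1 point per gene, with filled points past the adjusted p, black bars for the median of each complex and dotted lines at 0.5 in each direction. The 4 complex II genes lie below 0 with a median of −0.53, while complex I (36 genes) has a median of −0.01.

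Complex II, succinate dehydrogenase, links the citric acid cycle to the chain, and it was the complex with the lowest median in this comparison. All 4 tested genes had negative fold changes, with a median of −0.53, and 3 of them, SDHA, SDHC and SDHD, were called lower. Over all genes 6.90% were called lower. SDHA encodes the flavoprotein that oxidises succinate, SDHB the iron-sulfur protein, and SDHC and SDHD the membrane anchors. On GRCh38 they lie at chr5:218303-257082 (SDHA), chr1:17018664-17054032 (SDHB), chr1:161314381-161363206 (SDHC) and chr11:112086824-112120016 (SDHD). SDHA stood at 124, 155 and 139 CPM in siControl replicates 1 to 3 and at 98.6, 91.1 and 95.9 CPM in siDGUOK replicates 1 to 3. All siDGUOK values were below all siControl values. SDHA fell by 0.55 on the log2 scale (standard error 0.10, edgeR adjusted p = 6.49e-04), from 139 ± 15.6 to 95.2 ± 3.82 CPM (SD, n = 3). SDHC stood at 82.5, 98.4 and 102 CPM in siControl and at 62.6, 63.3 and 73.0 CPM in siDGUOK, and its groups did not overlap either. Its log2 fold change was −0.50 (standard error 0.12, edgeR adjusted p = 0.0043). SDHD stood at 33.1, 30.7 and 43.1 CPM in siControl and at 26.9, 19.1 and 22.8 CPM in siDGUOK. Its lowest siControl value lay above its highest siDGUOK value, and its fold change on the log2 scale was −0.63 (standard error 0.19, edgeR adjusted p = 0.0215). SDHB stood at 44.4, 46.2 and 39.9 CPM in siControl and at 30.5, 31.1 and 41.3 CPM in siDGUOK. Its siDGUOK replicate 3 lay within the siControl range, and its log2 fold change of −0.34 did not pass (standard error 0.16, edgeR adjusted p = 0.146).

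The call of SDHA was lost without siControl replicate 2, where its log2 fold change was −0.46. SDHC lies on the fold threshold and was called in 5 of 15 alternatives (9 with another tool, scaling, filter or a replicate block and 6 without 1 library, all at the same thresholds), although its adjusted p passed in all 15. It lost the call without siControl replicate 2 (−0.46), siControl replicate 3 (−0.44), siDGUOK replicate 1 (−0.47) or siDGUOK replicate 2 (−0.47). SDHD did not pass without siControl replicate 3 (−0.46, edgeR adjusted p = 0.161) or without siDGUOK replicate 2 (−0.51, edgeR adjusted p = 0.0923). SDHB was called without siDGUOK replicate 3 (−0.50, edgeR adjusted p = 0.0452). Over the 15 alternatives the adjusted p of SDHD ran from 0.0095 to 0.161 and that of SDHB from 0.0452 to 0.376. The median of the complex stayed negative in every alternative, between −0.60 and −0.45. Summed over the complex, the level was 284, 330 and 324 CPM in siControl and 219, 204 and 233 CPM in siDGUOK. The groups did not overlap, and the siDGUOK mean was 69.9% of the siControl mean.

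**Figure D2:**
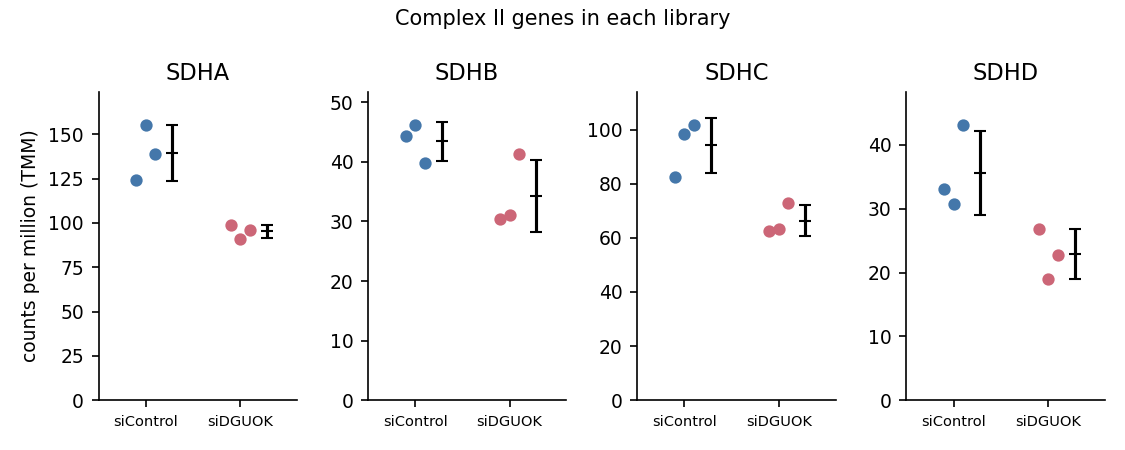
CPM of the 4 complex II genes in each library, 1 point per library, with bars for the mean and SD of each group (n = 3). The siDGUOK values of SDHA (91.1 to 98.6) lie below its siControl values (124 to 155), and those of SDHB overlap through siDGUOK replicate 3 (41.3).

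Complex V moved in both directions. Of its 16 tested members, 6 passed the adjusted p, where 9.93% of all genes passed higher and 9.66% lower. ATP5E was higher and ATP5D, ATP5H, ATP5G1, ATP5G2 and ATP5A1 were lower (ATP5A1 was named after its values were seen). ATP5D encodes the delta subunit and ATP5E the epsilon subunit, which sit together in the central stalk, and the genes lie at chr19:1241746-1244825 and chr20:59025475-59032345. ATP5D stood at 73.5, 88.4 and 70.1 CPM in siControl and at 50.0, 49.7 and 40.2 CPM in siDGUOK, and ATP5E at 282, 343 and 306 CPM in siControl and at 443, 465 and 545 CPM in siDGUOK. These neighbours moved in opposite directions, each without overlap between the groups. ATP5D fell by 0.73 on the log2 scale (standard error 0.13, edgeR adjusted p = 5.36e-04). ATP5E rose by 0.64 (standard error 0.09, edgeR adjusted p = 5.07e-05). Both were called in all 15 alternatives. Other genes overlap 23.2% of the ATP5E exons, so some of its counts are uncertain.

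ATP5H, at chr17:75038863-75046985, encodes subunit d of the peripheral stalk. It stood at 179, 143 and 156 CPM in siControl and at 117, 110 and 82.7 CPM in siDGUOK, and its groups did not overlap. It fell by 0.63 on the log2 scale (standard error 0.12, edgeR adjusted p = 0.00101), and without siDGUOK replicate 3 the value was −0.49, under the fold threshold. ATP5A1, the catalytic alpha subunit, stood at 417, 417 and 456 CPM in siControl and at 360, 347 and 354 CPM in siDGUOK. Its lowest siControl value was above its highest siDGUOK value, and it fell by 0.28 (standard error 0.07, edgeR adjusted p = 0.0108). It did not pass without siControl replicate 3, where the edgeR adjusted p was 0.118, the highest of the 15 alternatives, which began at 6.53e-04. ATP5B, the catalytic beta subunit, did not pass, at −0.15 on the log2 scale (standard error 0.07, edgeR adjusted p = 0.154). ATP5S, whose protein is not a subunit, stood at 0.40 and did not pass (standard error 0.19, edgeR adjusted p = 0.167), with 0.24 without siDGUOK replicate 3.

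Subunit c, which forms the ring that turns in the membrane, is encoded by ATP5G1, ATP5G2 and ATP5G3, whose mature proteins are identical. The family stood at 405 ± 24.5 CPM in siControl and 349 ± 14.8 CPM in siDGUOK (SD, n = 3). ATP5G1, at chr17:48892765-48895871, stood at 30.7, 36.6 and 28.7 CPM in siControl and at 19.2, 18.9 and 26.1 CPM in siDGUOK. All siDGUOK values were below the siControl values, and the gene fell by 0.58 on the log2 scale (standard error 0.19, edgeR adjusted p = 0.0346). ATP5G2 fell by 0.29 (standard error 0.09, edgeR adjusted p = 0.0331), and ATP5G3, at −0.12, did not pass (standard error 0.09, edgeR adjusted p = 0.387), with −0.07 without siControl replicate 3 and −0.18 without siDGUOK replicate 3. ATP5G1 passed in 10 of 15 alternatives and, of the fits without 1 library, only without siDGUOK replicate 3. Its adjusted p was 0.0718, 0.149 and 0.0606 without siControl replicates 1, 2 and 3, and 0.132 and 0.118 without siDGUOK replicates 1 and 2. ATP5G2 passed in 9 of 15, not without a count filter (edgeR adjusted p = 0.066) and not without siControl replicates 1 (edgeR adjusted p = 0.0687) and 2 (0.137) or siDGUOK replicates 1 (0.0548), 2 (0.0815) and 3 (0.0828). Per length, ATP5G3 held 54.4% of the family's level in siControl, ATP5G2 34.3% and ATP5G1 11.3%.

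**Figure D3:**
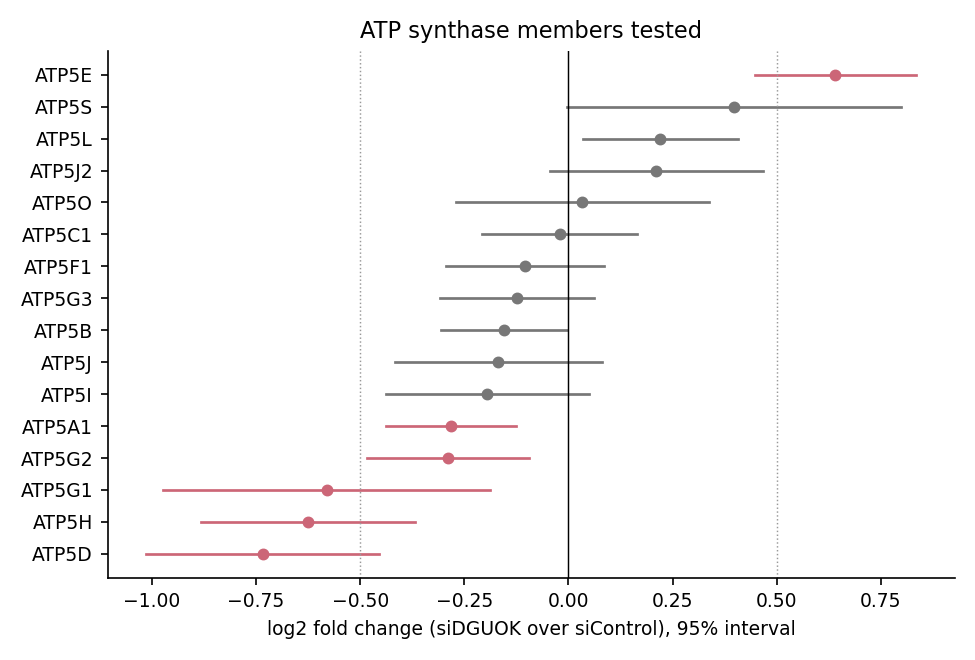
Log2 fold change (siDGUOK over siControl) of the 16 tested complex V members with 95% intervals, coloured where the adjusted p was passed, with dotted lines at 0.5 in each direction. ATP5E lies highest at 0.64 and ATP5D lowest at −0.73.

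Complex I, which oxidises NADH and pumps protons, had 36 tested members split evenly, 18 positive and 18 negative, with a median of −0.01 that ran from −0.05 to 0.04 without 1 library, with 12 to 20 positive members. Of these, 2 passed the adjusted p, both higher, where 9.93% of all genes passed higher and 9.66% lower. NDUFB3, an accessory subunit of the membrane arm encoded at chr2:201071433-201085750, stood at 30.3, 36.2 and 45.2 CPM in siControl and at 55.2, 57.1 and 68.6 CPM in siDGUOK. All siDGUOK values were above the siControl values, and it rose by 0.70 on the log2 scale (standard error 0.16, edgeR adjusted p = 0.00307), a call held in all 15 alternatives. NDUFAB1, the mitochondrial acyl carrier protein, stood at 95.1, 98.4 and 101 CPM in siControl and at 119, 134 and 120 CPM in siDGUOK, without overlap. It rose by 0.34 (standard error 0.10, edgeR adjusted p = 0.0157), but did not pass without siDGUOK replicate 2, where the edgeR adjusted p of 0.0854 was the highest of the 15 alternatives, which began at 0.0077. NDUFB10, also of the membrane arm, had the lowest fold change of the complex, −0.48 (standard error 0.17, edgeR adjusted p = 0.0588). Its adjusted p passed in 5 of 15 alternatives, and it was called without siControl replicate 1 (−0.62) and without siDGUOK replicate 2 (−0.63). It was at −0.29 without siControl replicate 2 (edgeR adjusted p = 0.332) and −0.33 without siDGUOK replicate 3 (edgeR adjusted p = 0.225). NDUFA3, the next lowest, stood at −0.42 and did not pass (standard error 0.21, edgeR adjusted p = 0.186), with −0.20 without siControl replicate 2. The 7 core subunits, which carry the flavin and iron-sulfur clusters, gave 0 genes past the adjusted p by edgeR and 0 by DESeq2, with 1 at an unadjusted p under 0.05.

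Of the 10 tested members of complex III, 2 passed the adjusted p, in opposite directions, where 19.6% of all genes passed. UQCRC2, a core protein, stood at 378, 378 and 373 CPM in siControl and at 321, 306 and 304 CPM in siDGUOK. UQCRB, known as the ubiquinone-binding protein, stood at 144, 173 and 169 CPM in siControl and at 240, 204 and 220 CPM in siDGUOK. Neither gene overlapped between the groups. UQCRC2 fell by 0.28 (standard error 0.07, edgeR adjusted p = 0.0106) and UQCRB rose by 0.45 (standard error 0.09, edgeR adjusted p = 0.00174). UQCRC2 did not pass without siControl replicate 3, where the edgeR adjusted p of 0.0651 was the highest of the 15 alternatives, which began at 4.57e-04. UQCRB passed in all 15 and crossed the fold threshold without siControl replicate 2 or siDGUOK replicate 2 (0.51 in each). Cytochrome c1 (CYC1) had a log2 fold change of −0.07 and cytochrome c (CYCS) one of −0.19, and neither passed (edgeR adjusted p = 0.746 and 0.315). Without siControl replicate 2 the value of CYC1 was 0.08, and that of CYCS ran from −0.30 without siDGUOK replicate 2 to −0.06 without siDGUOK replicate 3. UQCRHL, a retrocopy of UQCRH, had the lowest value of complex III, −0.30 (standard error 0.31, edgeR adjusted p = 0.586), which was 0.18 without siControl replicate 2.

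Complex IV, cytochrome c oxidase, had 12 positive and 2 negative fold changes among 14 tested members, with a median of 0.09. Without 1 library the median ran from 0.06 to 0.17 with 10 to 14 positive members, and 4 members (COX4I2, COX5B, COX6A1 and COX6C) changed sign in at least 1 of 15 alternatives (COX6A1 was named after its values were seen). NDUFA4 and COX7A2L passed, both higher, where 9.93% of all genes passed higher and 9.66% lower. NDUFA4, which is named after complex I but belongs to complex IV, stood at 90.5, 111 and 97.5 CPM in siControl and at 132, 131 and 135 CPM in siDGUOK. Its groups did not overlap, and it rose by 0.41 (standard error 0.10, edgeR adjusted p = 0.00567), crossing the fold threshold without siControl replicate 2 (0.50). COX7A2L, which takes part in joining complexes III and IV, stood at 144, 131 and 148 CPM in siControl and at 176, 159 and 188 CPM in siDGUOK. Its groups did not overlap either, and it rose by 0.31 (standard error 0.09, edgeR adjusted p = 0.0236). It did not pass without siControl replicate 2 (edgeR adjusted p = 0.0837), siDGUOK replicate 1 (0.0728) or siDGUOK replicate 3 (0.107, the highest of the 15 alternatives, which began at 0.0092). For subunits with a second form (tissue-restricted, or the paralog NDUFA4L2 of NDUFA4), the ubiquitous form held most of the pair's level per length. In siControl the shares were 97.2% for COX4I1, 98.6% for NDUFA4 and 99.8% for COX8A. Of 7 ubiquitous forms, NDUFA4 was the 1 that passed, while COX6B1 ran from 0.03 to 0.11 and COX7A2 from 0.04 to 0.16 on the log2 scale without 1 library. Of the second forms, COX4I2 and NDUFA4L2 were tested, with at most 3.12 CPM in a library, and neither passed (edgeR adjusted p = 0.994 and 0.729).

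The summed level of all members was 7776, 8658 and 8313 CPM in siControl and 8060, 8275 and 8220 CPM in siDGUOK. The groups overlapped, and the siDGUOK mean was 99.2% of the siControl mean. By complex the siDGUOK mean was 101% of siControl for complex I, 98.9% for complex III, 109% for complex IV and 96.7% for complex V, each with overlapping groups. The subunits encoded in mitochondrial DNA summed to 19728, 11641 and 10937 CPM in siControl and to 10583, 11753 and 9948 CPM in siDGUOK. Here siControl replicate 1 stood apart from the other 5 libraries. The siDGUOK mean was 76.3% of the siControl mean with all libraries and 95.3% without that library. Their ratio to the nuclear-encoded members was 2.54, 1.34 and 1.32 in siControl and 1.31, 1.42 and 1.21 in siDGUOK, overlapping between the groups. The part of this sum that belongs to complex IV was 10840, 6785 and 6308 CPM in siControl and 5481, 6179 and 5200 CPM in siDGUOK, without overlap, and the siDGUOK mean was 70.4% of the siControl mean, or 85.8% without siControl replicate 1. For the complex I part, whose groups overlapped, the siDGUOK mean was 83.9% of the siControl mean, but 107% without siControl replicate 1. Fold changes were negative for 12 of the 13 genes encoded in mitochondrial DNA, with MT-CYB near 0, but for 8 of 13 without siControl replicate 1. Of these 13 genes, 0 passed the adjusted p by edgeR and 0 by DESeq2, and 1 had an unadjusted p under 0.05. Without siControl replicate 1, MT-ND1, MT-ND2 and MT-CYB passed higher and MT-CO1 lower in edgeR's test, and MT-CO1 also passed lower without siControl replicate 3 and with a replicate block.

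**Figure D4:**
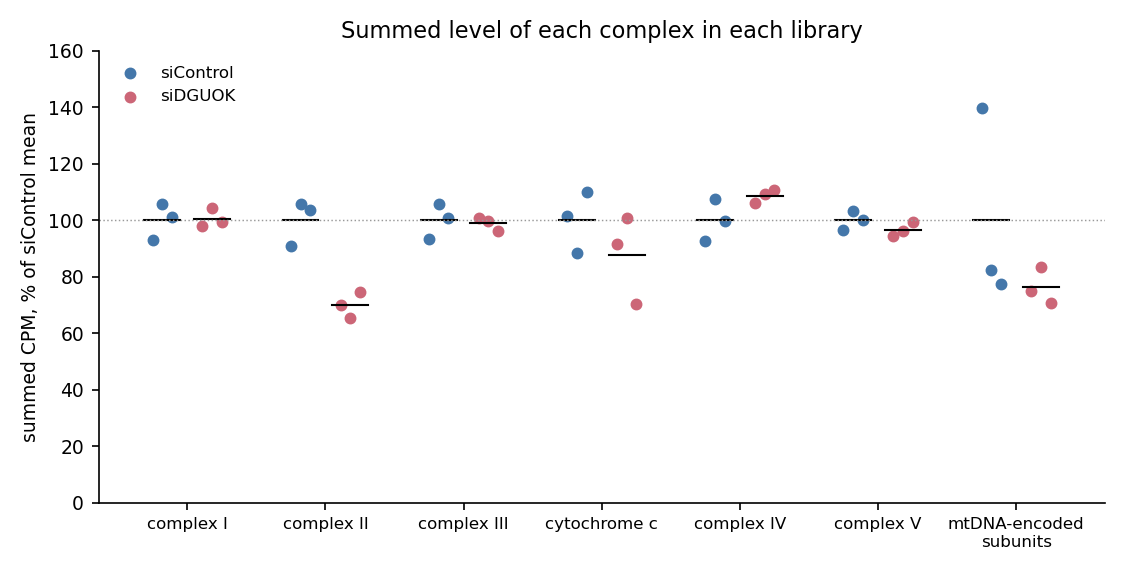
Summed CPM of each complex in each library as a percentage of its siControl mean, 1 point per library, with bars for the group means (n = 3). Complex II lies at 65.4 to 74.5% in siDGUOK, and the mitochondrially encoded subunits reach 140% in siControl replicate 1.

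Levels between genes were compared as counts per kb of exon, scaled to a fixed total within a library, and only in siControl. In siDGUOK replicate 1, 3 T cell receptor delta joining segments of 48 to 54 bases (TRDJ1, TRDJ2 and TRDJ4, singled out after their values were seen) held 0.535% of the counts but 26.9% of this scale. They had 476 counts in siDGUOK replicate 2 and 0 in the other 4 libraries. Per length, NDUFS5 was highest in complex I (989 ± 78.2), ATP5B in complex V (887 ± 18.8), COX5B in complex IV (677 ± 82.3), UQCRH in complex III (440 ± 18.1) and SDHC in complex II (179 ± 21.3; SD, n = 3 for each). Of these, the values of NDUFS5 lay above those of ATP5B in every siControl library. COX5B (600 to 764) likewise lay above NDUFB7 (570 to 642) in every siControl library, although their ranges overlapped. NDUFB7 and NDUFA9, and ATP5I and NDUFV2 named later, were singled out after their values were seen. The median ran from 45.1 in complex I to 177 in complex III. Exon lengths came from a later annotation than the one used for counting and include rare long exons, so these levels carry that limit.

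**Figure D5:**
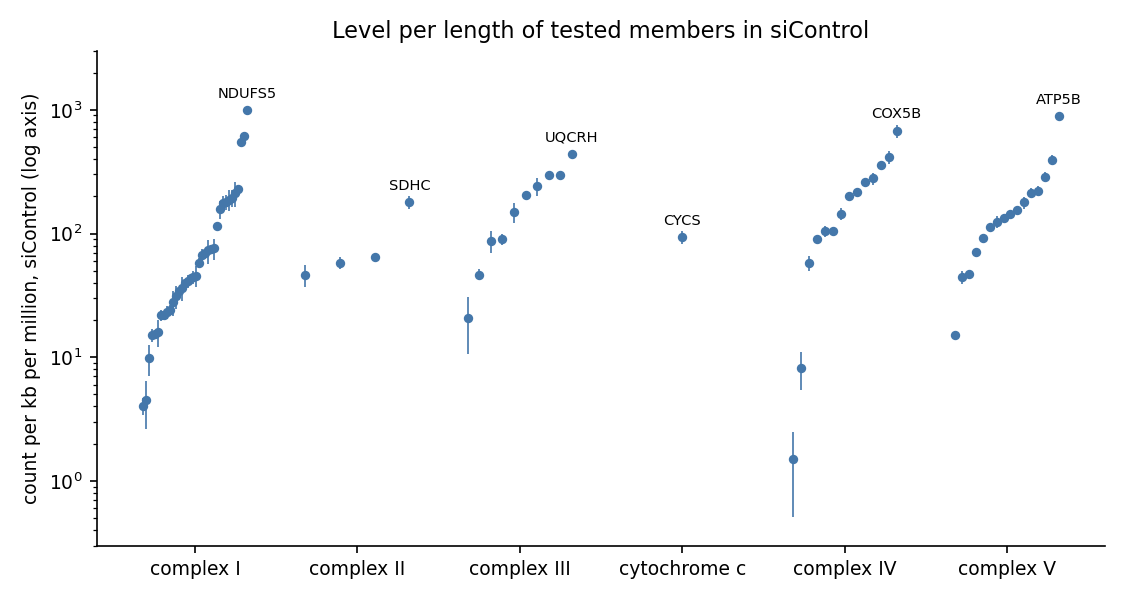
Level per length (counts per kb of exon scaled to a fixed total, log axis) of the tested members in siControl, 1 point per gene with bars for the SD (n = 3) and the highest gene of each complex named. NDUFS5 lies at 989 and NDUFA9, the lowest of complex I, at 4.03.

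The 8 members that were not tested had few counts. NDUFA7 had at most 25 counts in a library and overlaps neighbouring genes. COX6B2 had 11 counts at most, COX8C 3, ATP5EP2 10, ATP5J2-PTCD1 7 and ATP5L2 1. COX7A1, the muscle form of its subunit, had 0 counts in all 6 libraries. The last was a readthrough gene that includes SDHD. Reads that overlap several genes or align to several places were left out by the counting, which ignored strand, so members with overlapping exons or processed copies are uncertain. Other genes overlapped 21.7% of the exons of SDHA, 19.1% of ATP5H, 11.8% of NDUFB3 and 11.4% of SDHD, and ATP5I had the largest share among tested members (61.3%). Pseudogene counts came to 8.22% of those of SDHA and 33.6% of those of NDUFV2.

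Other genes of the pathway were described from lists of their known roles. For comparison with each list, 19.6% of all genes passed the adjusted p, 9.93% higher and 9.66% lower. Of 17 complex I assembly factors, NDUFAF4 passed higher (log2 fold change 0.53, edgeR adjusted p = 0.0389) and TMEM186 lower (−0.86, edgeR adjusted p = 0.0150). Of 22 tested complex IV assembly factors, COX20 rose (0.85, edgeR adjusted p = 1.15e-04), while COA3 (−0.59, edgeR adjusted p = 0.00129) and LRPPRC, which stabilises mitochondrial mRNAs, fell (−0.45, edgeR adjusted p = 9.38e-04). The 4 assembly factors of complex II, 6 of complex III and 4 of ATP synthase each gave 0 past the adjusted p by edgeR and 0 by DESeq2, with 2, 0 and 0 at an unadjusted p under 0.05. Of 9 tested regulators of respiratory genes, ESRRA, a nuclear receptor, rose (0.58, edgeR adjusted p = 8.12e-04). PPARGC1B, a coactivator with too few counts for the test, had 30, 10 and 23 counts in siControl and 2, 0 and 0 in siDGUOK. Of 5 tested proteins of the chain whose symbols the rule does not cover, HIGD1A rose (0.55, edgeR adjusted p = 4.31e-04). Without siControl replicate 2, ESRRA was at 0.49 and lost its call. NDUFAF4 did not pass in any of the 6 fits without 1 library, where its edgeR adjusted p was 0.0555 to 0.114, or with a replicate block (edgeR adjusted p = 0.0517). TMEM186 did not pass without siControl replicate 1 (edgeR adjusted p = 0.111), siControl replicate 3 (0.0712) or siDGUOK replicate 2 (0.0599). Other genes overlap 76.6% of the exons of COX20, 42.3% of COA3, 30.7% of TMEM186 and 18% of HIGD1A, so their counts are uncertain.

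Marker genes moved beside these results. Of 10 hepatocyte markers, 9 passed lower, where 9.66% of all genes did. The 10 markers summed to 56549, 51390 and 49833 CPM in siControl and 30367, 26940 and 25614 CPM in siDGUOK. ALB was the most abundant of them in every siControl library and SERPINA1, which did not pass, in every siDGUOK library. Of 6 leukocyte markers, CD79A passed higher, and the sum, nearly all LYZ, ran from 1620 to 1715 CPM in siControl and from 1761 to 1915 CPM in siDGUOK. CD79A had 0 counts in siControl replicates 1 and 2. Of 8 endothelial and stromal markers 5 were tested, with COL1A1 past the test higher and PDGFRB lower (the latter only in 1 of the 6 fits without 1 library, that without siDGUOK replicate 2), ACTA2 most abundant over all libraries, and KDR and DCN at 0 in all siControl libraries. COL3A1, which was not tested, had 0, 1 and 0 counts in siControl and 148, 254 and 9 counts in siDGUOK. The 8 markers summed to 45.3, 43.3 and 37.2 CPM in siControl and 66.3, 115 and 50.1 CPM in siDGUOK, where siDGUOK replicate 2 held 31.3 CPM of VWF, its most abundant marker of this list, and 15.8 CPM of PECAM1. The part of these markers in the fall of complex II genes and in the other member changes was not tested.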

How the data were processed

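The values are gene counts that the authors deposited. Counting was done by featureCounts 1.6.5 with its default settings and a floor on read quality. Its input was reads placed on GRCh38 by STAR 2.6.1 with Gencode models. Reads from spike-ins, adapters, rRNA and tRNA were dropped before mapping, and those of low complexity after it. The counts were not normalized. Computed here in R 4.3.3 with edgeR 4.0.16: filterByExpr (minimum count 10), TMM scaling, and edgeR's quasi-likelihood test with Benjamini-Hochberg adjustment over all 14476 genes tested. CPM use the scaled library sizes. Replicates differed by more than counting error (chi-square per degree of freedom 10.7 to 25.7). The code was checked on simulated counts.

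The members and lists were chosen with earlier results of these data known. Named members were those called, those with the 2 largest fold changes in each direction per complex, the highest per length, the isoform families, SDH and cytochrome genes and the untested members. Marker genes under this rule are given mainly as counts. Alternatives were DESeq2 1.42.0 with and without shrinkage, other scalings and filters, a replicate block, a stricter fold threshold, subunits alone and each library left out.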

Additional observations from a re-analysis of the deposited data

How the results depend on the processing

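The 8 calls and 15 members past the adjusted p were also found by DESeq2, with 8 and 15. Across the other scalings, filters and shrinkage, 7 or 8 members were called, and NDUFB3, ATP5D and ATP5E were called in all 15 alternatives that kept the thresholds. With each library left out in turn, 5 to 8 members were called (2 to 4 higher and 3 to 6 lower), 11 to 14 passed the adjusted p, and the median log2 fold change ran from −0.06 to 0.06. In these fits 1704 to 1935 of all genes were called and 2085 to 2534 passed, against 2032 and 2836 with all 6 libraries. The lowest count of called members came without siControl replicate 3, the smallest library, and the cause was not tested. At an absolute log2 fold change above 1, 0 of 81 tested members were called by edgeR, against 823 of all 14476 genes tested. By DESeq2 the counts were 0 of 83 members and 1018 of 16999 genes. Without regard to fold change, 22 members had an unadjusted p under 0.05 in edgeR's test. The share of all genes at that unadjusted p was not taken. TMM factors taken from all genes with a count, chosen after seeing the data, gave 7 calls. The summed level stayed within 96.5% and 101.7% of siControl without 1 library, an alternative chosen after seeing the data, as were those for the mitochondrially encoded subunits.

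Replicate numbers did not pair the samples (correlations of 0.024, 0.0165 and −0.0023 for the 3 numbers). The fit with a replicate block gave 8 calls and 16 members past the adjusted p, with a median of −0.02. Intervals and p-values cover spread between these libraries. The largest standard error was that of COX4I2, with 27, 0 and 68 counts in siDGUOK, followed by NDUFA4L2 (0.99), and the part of depth in this was not tested. Too few counts kept 8 of 89 members out of the test.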
